A study of Homo sapiens with 12 samples.

Results

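*KDM6B*, *TGIF2* and *NADK2* were the 3 transcripts with the strongest m6A peaks that appeared only after rapamycin in both oral squamous cell carcinoma (OSCC) cell lines of this study. A gained peak was a rapamycin peak without a shared base with any control peak on its strand in that line. In both lines such peaks were found on 594 of the 6163 genes with a peak in any list (9.64%), and on 594 of the 1190 genes with a peak in both rapamycin lists (49.9%). The 3 genes were chosen by the fold enrichment of their gained peaks, as the highest of the 594 in the weaker of the lines. Those fold enrichments are therefore a description and carry no test. Of the 14586 peaks in the 4 lists, 7 lay on these genes. All 3 genes were among the 15826 of 58302 genes with enough RNA-seq counts to be tested.

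HSC3 and CAL33 are established human OSCC cell lines, and rapamycin inhibits the kinase mTOR and induces autophagy. For MeRIP-seq, in which RNA fragments carrying m6A are pulled down with an antibody and sequenced beside the input RNA, each line was cultured with 100 nM rapamycin for 3 days or without it, giving 1 immunoprecipitated library and 1 input library per line and treatment and no replicate within a line. RNA-seq comprised 4 libraries, 2 labelled rapamycin (100 nM) and 2 labelled control, each numbered 1 or 2. By their labels the RNA-seq libraries with rapamycin were all HSC3 and those without it all CAL33. The MeRIP-seq labels differ from this, since there the lines follow the numbers, 1 for HSC3 and 2 for CAL33.

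In the RNA-seq libraries the numbers, and not the labelled lines, grouped the samples. Log2 CPM (counts scaled to a common library size) correlated at 0.97 and 0.96 between libraries of the same number and at 0.76 to 0.81 otherwise, over 15826 genes, which are not independent replicates. If the cell line labels hold, treatment and cell line cannot be told apart in these libraries. The RNA-seq libraries are called by treatment and number below, and values are given with and without the number as a block in the fit. Totals ranged from 18492273 to 23763098 counts. Of 8 squamous epithelium markers, 6 were at 1 CPM or more in every library, and their summed level was 879 to 1082 CPM in the number 1 libraries and 3422 to 4783 CPM in the number 2 libraries. *KRT14*, a basal keratin, was at 0 in both number 1 libraries. Of the other keratins, *KRT5* was 34.2 and 1703 CPM in control libraries 1 and 2 and 6.10 and 327 CPM with rapamycin, and *KRT6A* was 4.39 and 374 CPM in control and 0.42 and 5.38 CPM with rapamycin. Both were thus lower with rapamycin in each pair. *KRT17* went the other way, at 4.9 and 1346 CPM in control libraries 1 and 2 and 5.05 and 2119 CPM with rapamycin. *SFN* and *EPCAM* were lower in each pair, and *TP63* and *CDH1* were lower in number 1 and higher in number 2. The part of these markers in the results below was not tested. All 4 leukocyte markers stayed under 1 CPM, and 3 of 5 fibroblast markers were at 0 in each library. The fibroblast marker *COL1A1* was 22.0 and 8.79 CPM in control libraries 1 and 2 and 29.3 and 28.4 CPM with rapamycin. *LUM* was 3.46 and 0 CPM in control and 2.58 and 0.11 CPM with rapamycin. The summed level of 3 endothelium markers was 1.42 to 1.71 CPM in the number 1 libraries. In the number 2 libraries it was 30.8 to 45.4 CPM, mostly *CDH5*. The sum thus moved with the number and not with the treatment. Whether the labelled replicates were separate cultures is not given, so the p-values measure only the spread between these libraries. Without the block that spread includes the difference between the numbers. The common dispersion, the edgeR estimate of spread over all genes, was 0.64 without the block and 0.061 with it. With the block, 4 libraries leave little residual spread per gene, so those p-values rest largely on a spread pooled over genes. That remaining spread may be technical.

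m6A is placed on adenosines of mRNA mainly by the METTL3 and METTL14 methyltransferase complex, often in long coding exons and near stop codons. Reader proteins bind the mark and alter the decay, splicing or translation of the transcript. The 3 transcripts encode proteins of unrelated function. KDM6B (also JMJD3) is a demethylase that removes methyl groups from lysine 27 of histone H3 and opposes the Polycomb repressive complex PRC2. TGIF2 is a homeodomain repressor that binds SMAD proteins and dampens transcription downstream of TGF-beta. NADK2 is the mitochondrial NAD kinase, which makes NADP inside mitochondria, where it is needed for proline synthesis among other reactions.

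*KDM6B* (ENSG00000132510) had 1 peak in each rapamycin list and none in either control list. In HSC3 rapamycin cells the peak ran over chr17:7849043-7849343 on the plus strand, and in CAL33 rapamycin cells over chr17:7849013-7849343 (hg38, counted from 1). The peaks ended on the same base, and the 301 bp HSC3 peak lay wholly inside the 331 bp CAL33 peak. The authors annotated both as coding sequence (CDS). Their centres were 5603 and 5618 bp of genomic distance upstream of the 3′ end of the gene, 72.8% and 72.7% of the way along its span. *KDM6B* was the only RefSeq gene at these positions. The nearest control peak on that strand was 10096 bp away in both lines and belonged to another gene, *CYB5D1*.

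*TGIF2* (ENSG00000118707) likewise had 1 peak in each rapamycin list and none in the control lists. The CDS peak ran over chr20:36591090-36591358 in HSC3 and over chr20:36591150-36591418 in CAL33, on the plus strand. Each was 269 bp long, the CAL33 peak was shifted by 60 bp towards the 3′ end, and 209 bp were common to both, or 77.7% of either peak. The centres lay 2726 and 2666 bp from the 3′ end of the gene. The same bases also lie inside the span of *TGIF2-RAB5IF*, a read-through gene that joins *TGIF2* to its neighbour. Because these bases are shared, peaks of the read-through gene and of *TGIF2* cannot be told apart here. The peaks that the authors assigned to the read-through gene were elsewhere, at its 3′ end, at a fold enrichment of 29.8 in HSC3 rapamycin cells and 17.1 in CAL33 control cells.

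*NADK2* (ENSG00000152620) had 3 peaks, all annotated as 3′ UTR and all on the minus strand. The gained peaks ran over chr5:36194839-36195109 (271 bp) in HSC3 and chr5:36194959-36195199 (241 bp) in CAL33. They shared 151 bp, 62.7% of the shorter peak, so that this was the least exact match of the 3 genes. The third peak was listed in CAL33 control cells only, over chr5:36193191-36193461. It lay 1497 bp downstream of the CAL33 rapamycin peak and had no counterpart with rapamycin. In CAL33 the listed peak of *NADK2* was thus at different places with and without rapamycin, whereas in HSC3 the control list held no peak on the gene at all.

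The control peak of *NADK2* also lay wholly inside the span of *SKP2* in the RefSeq annotation. *SKP2*, which encodes the substrate receptor of a cell cycle ubiquitin ligase, runs in the opposite direction and overlaps the 3′ end of *NADK2*. The gained *NADK2* peaks lay outside that overlap. Whether the MeRIP-seq reads were assigned by strand is not given in the sources used here, so reads of the 2 genes under the control peak cannot be told apart. *SKP2* mRNA was 64.2 and 93.7 CPM in control libraries 1 and 2 and 32.2 and 38.2 CPM in rapamycin libraries 1 and 2. It was lower with rapamycin by a similar amount in both fits but passed only with the block. The log2 fold change was −1.15 with the block (standard error 0.28, adjusted p = 0.0108 from edgeR) and −1.165 without it (adjusted p = 0.9997 from edgeR). *SKP2* was named after its values were seen, and its part in the *NADK2* control peak was not tested.

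**Figure D1:**
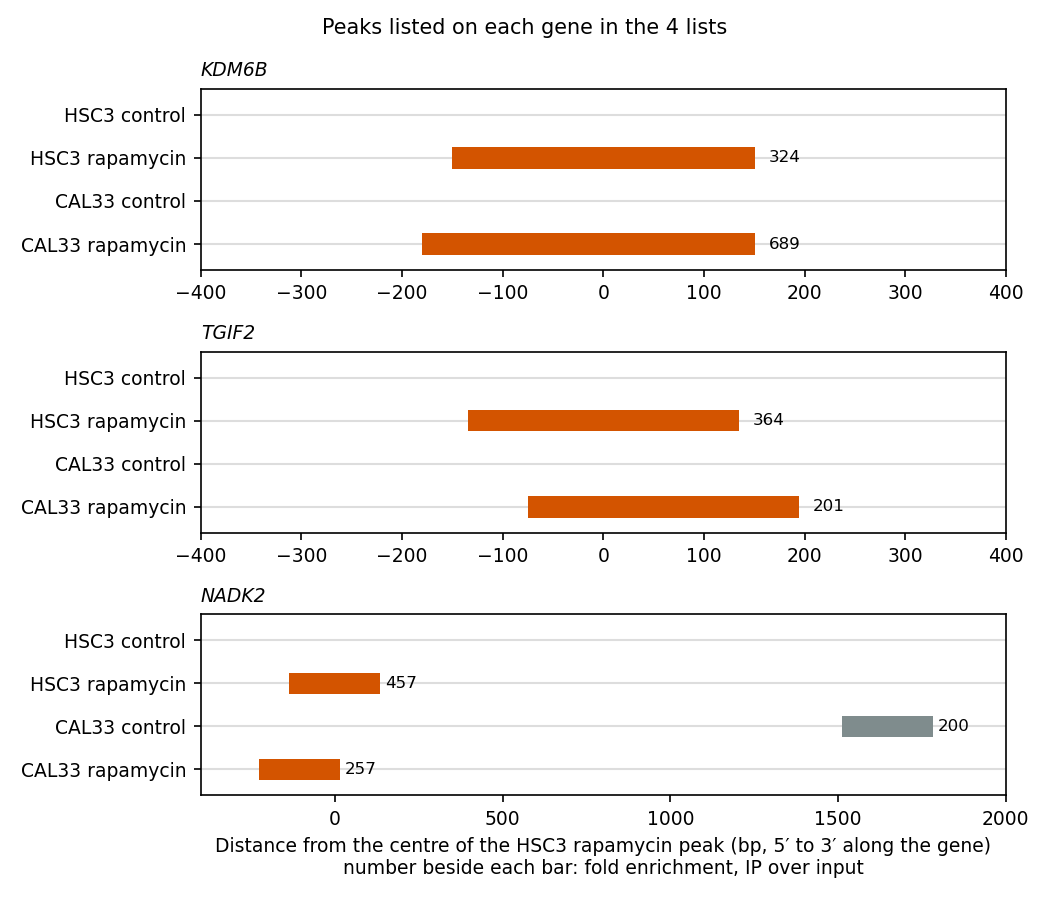
Peaks listed on *KDM6B*, *TGIF2* and *NADK2*, by distance in bp from the centre of the HSC3 rapamycin peak along the gene, 1 line for each of the 4 lists. Orange bars are rapamycin peaks, grey bars control peaks, and the number beside each bar is the authors' fold enrichment. The single grey bar is the *NADK2* peak of CAL33 control cells.

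The authors' fold enrichment (immunoprecipitated RNA over input) of the *KDM6B* peak was 324 in HSC3 rapamycin cells and 689 in CAL33 rapamycin cells. The *NADK2* peak had 457 in HSC3 and 257 in CAL33 with rapamycin. The *TGIF2* peak had 364 in HSC3 and 201 in CAL33. *KDM6B* was thus highest in CAL33 and lowest of the 3 in HSC3, and *NADK2* and *TGIF2* were both higher in HSC3. With 1 library pair per line these orders carry no error.

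Fold enrichment depends on how each library pair was scaled, so the peaks were also placed within their own list. In HSC3 rapamycin cells the *NADK2*, *TGIF2* and *KDM6B* peaks ranked 53, 88 and 107 of 3952. In CAL33 rapamycin cells the *KDM6B*, *NADK2* and *TGIF2* peaks ranked 21, 143 and 208 of 3079. The median peak had a fold enrichment of 33.3 in the former list and 35.9 in the latter, which puts the members between 5.60 times and 19.2 times the median of their list. The *NADK2* control peak of CAL33, at a fold enrichment of 200, ranked 498 of 3625, or 4.69 times the median of its list of 42.6.

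By p-value *KDM6B* stood further from the other members than by fold enrichment. Its log10 p-value from the authors' peak caller was −280 in HSC3 and −189 in CAL33, against −106 and −64.1 for *NADK2* and −84.0 and −45.7 for *TGIF2*. By p-value the *KDM6B* peaks ranked 130 and 155 in their lists, while the *TGIF2* peaks ranked 460 and 605. If genes were ordered by the larger p-value of the lines in place of fold enrichment, *KDM6B* stayed at rank 1 of 594, *NADK2* moved to rank 8 and *TGIF2* to rank 19.

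**Figure D2:**
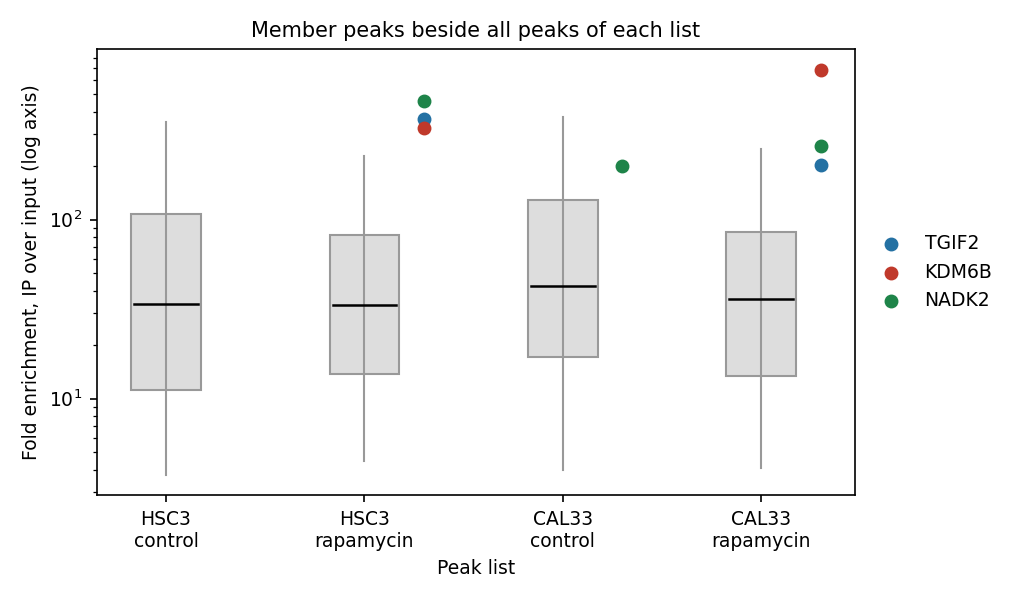
Fold enrichment of immunoprecipitated RNA over input (log axis) for the peaks of *KDM6B*, *TGIF2* and *NADK2* (coloured points) beside all peaks of each list. Grey boxes span the 25th to 75th percentile, the black line is the median and the thin line runs from the 5th to the 95th percentile. Both *KDM6B* and *NADK2* exceed the 95th percentile in each rapamycin list, and *TGIF2* does so in HSC3 but not in CAL33, where that percentile was 248.

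The gained peaks were also longer than most. They measured 241 to 331 bp, against a median of 210 bp for the strongest gained peak of the 594 genes in either line. In 33 of the 594 genes (5.56%) both peaks reached 241 bp. That limit is the shortest of the members' own peaks, so the members reach it by definition and the share is no test. In 429 of the 594 genes (72.2%) the strongest gained peak had the same annotation in both lines, as it had in the 3 members. The CDS held the peak in both lines for 206 genes, as for *KDM6B* and *TGIF2*, and the 3′ UTR for 143, as for *NADK2*.

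Sharing a position and lacking control peaks were less common in the pool. Gained peaks overlapped between the lines in 249 of the 594 genes, a background of 41.9%, and did so in 3 of 3 members. No control peak lay anywhere on the gene in either line for 199 of the 594 genes, or 33.5%, and for *KDM6B* and *TGIF2* among the members. Both held in 111 genes, or 18.7%. These features come from the same peaks that chose the genes and were not tested.

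The cut-off after the third gene was not a gap in the values. *TGIF2*, just inside it, had a smaller fold enrichment of 201, and the next genes were *RHOB* at 185, *C22orf46* at 180 and *ZBTB41* at 178, compared with a median of 21.2 over the 594 genes. *RHOB* encodes a small GTPase and *ZBTB41* a zinc finger protein. The genes most like the members over the 4 lists came from the same range. Likeness was measured as the distance between the percentiles of each gene's strongest peak, with 0 for no peak. For *KDM6B* the nearest genes were *ZBTB41* (distance 4.68) and *TGIF2* (6.09), and for *TGIF2* they were *KDM6B* (6.09) and *ZBTB41* (7.43). For *NADK2*, the member with a CAL33 control peak, they were *C22orf46* (6.77) and *C1GALT1* (11.4). Peaks in both rapamycin lists and in neither control list were found on 200 of 6163 genes, and the *NADK2* pattern, with a CAL33 control peak in addition, on 193.

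The opposite change was of a similar size in other genes, and which of them held the highest value depended on the scale. Lost peaks, present in the control list and unmatched with rapamycin, were found in both lines on 706 genes. The highest smaller fold enrichment was 443 among these, against 324 for *KDM6B*. Of the 706 genes, 6 reached the fold enrichment of *KDM6B*, 13 that of *NADK2* and 27 that of *TGIF2*. The lists were scaled separately, and the 95th percentile was 353 and 374 in the control lists against 227 and 248 in the rapamycin lists. By percentile within the list the order turned for the highest gene only. The smaller percentile was 97.32 for *KDM6B*, 95.39 for *NADK2* and 93.28 for *TGIF2*, against at most 96.64 among the lost genes, of which 0, 4 and 7 reached these values. By percentile *NADK2* was at rank 2 and *TGIF2* at rank 3 of the gained genes. More lost than gained genes thus reached the values of these members.

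**Figure D3:**
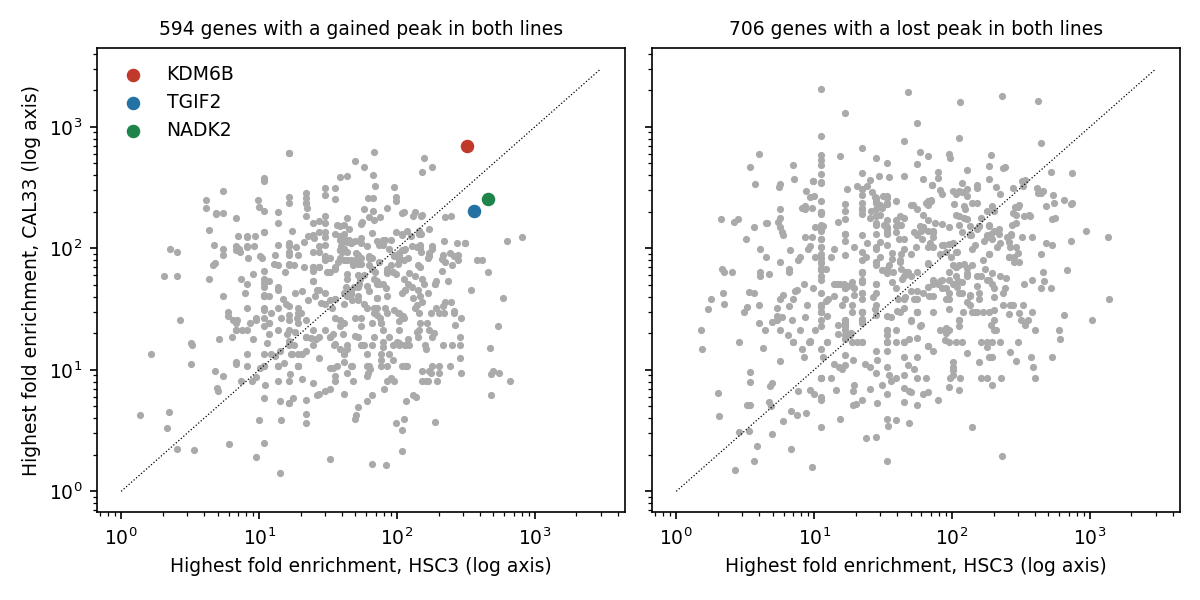
Highest fold enrichment of a gained peak (left, 594 genes) or a lost peak (right, 706 genes) per gene in HSC3 (x axis) and CAL33 (y axis), both on log axes. The dotted line marks equal values, and *KDM6B*, *TGIF2* and *NADK2* are named among the gained genes. In the weaker line the highest gained value is 324 and the highest lost value 443.

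The mRNA level, which the choice of the genes did not use, was compared between rapamycin and control libraries. Without the block, 0 of 15826 genes (0.0%) passed an adjusted p of 0.05 in the quasi-likelihood test of edgeR (Benjamini-Hochberg), 446 had an unadjusted p under 0.05, and DESeq2 called 42. With the number as a block, 1290 genes (8.15%) passed, 736 higher (4.65%) and 554 lower (3.50%) with rapamycin. Of the 3 members, 0 passed without the block and 1, *KDM6B*, passed with it. All 3 were higher with rapamycin in both numbered pairs, as were 34.6% of all genes tested.

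*KDM6B* mRNA was 48.1 and 50.7 CPM (counts scaled by TMM) in control libraries 1 and 2 and 95.9 and 145 CPM in rapamycin libraries 1 and 2. Both rapamycin libraries lay above both control libraries, which was so for 15.0% of all genes tested. The mean was 49.4 ± 1.83 CPM (SD, n = 2) in control and 120 ± 34.4 CPM (SD, n = 2) with rapamycin, and the ratio was 1.99 in pair 1 and 2.85 in pair 2. The log2 fold change was 1.28 (standard error 0.35) without the block, which did not pass (adjusted p = 0.9997 from edgeR, unadjusted p = 0.0210). With the block it was 1.25 (standard error 0.26) and passed (adjusted p = 0.00523 from edgeR). The gene held place 187 of 15826 by p-value in that fit, and 519 of the 736 genes called higher had a log2 fold change at least as large.

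*TGIF2* mRNA was 17.0 and 29.5 CPM in control libraries 1 and 2 and 24.6 and 35.9 CPM in rapamycin libraries 1 and 2. The groups overlapped, since control library 2 lay above rapamycin library 1. The mean was 23.3 ± 8.80 CPM in control and 30.2 ± 8.0 CPM with rapamycin (SD, n = 2 each). Without the block its log2 fold change came to 0.38, with a standard error of 0.46 and an adjusted p of 0.9997 from edgeR. With the block these were 0.40, 0.31 and 0.450. Without control library 1 it was −0.03, so the direction of the unblocked value rested on that library.

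*NADK2* mRNA was the least abundant of the 3 by counts, with 243 and 341 counts in the control libraries and 299 and 311 in the rapamycin libraries. In CPM this was 11.2 and 14.4 in control libraries 1 and 2 against 15.7 and 17.1 in rapamycin libraries 1 and 2. Both rapamycin libraries lay above both control libraries, as in 15.0% of all genes tested, but the difference was small beside the standard error of the fit. Its log2 fold change rounded to 0.36 in both fits, with a standard error of 0.42 and an adjusted p of 0.9997 without the block and 0.36 and 0.576 with it (edgeR). All 3 members had at least 243 counts in each control RNA-seq library, both of which are labelled CAL33. The input libraries of MeRIP-seq were not analysed here, and the part of the mRNA level in the gained peaks was not tested.

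**Figure D4:**
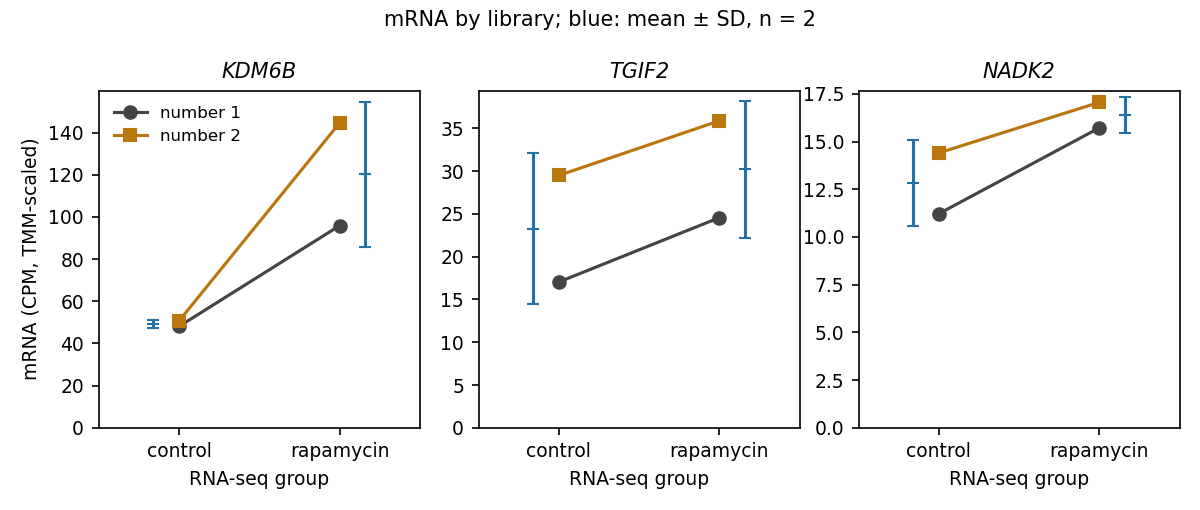
*KDM6B*, *TGIF2* and *NADK2* mRNA in CPM (axes start at 0) in the 4 RNA-seq libraries, with lines joining libraries of the same number and blue bars for the mean ± SD (n = 2). *KDM6B* goes from 48.1 to 95.9 in number 1 and from 50.7 to 145 in number 2, while the *TGIF2* and *NADK2* libraries lie closer together.

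The members were also compared between the numbered libraries. In the fit with treatment and number as terms, 5899 of 15826 genes (37.3%) differed between number 2 and number 1. *TGIF2* came nearest of the members, with number 2 higher by 0.67 on the log2 scale (standard error 0.31, adjusted p = 0.0911 from edgeR). The difference was 0.34 for *KDM6B* (standard error 0.26, adjusted p = 0.337) and 0.24 for *NADK2* (standard error 0.36, adjusted p = 0.645), so 0 of 3 passed. For *TGIF2* the difference between numbers was thus larger than its treatment change of 0.40 in the same fit. The paralog *KDM6A*, which encodes the other broadly expressed H3K27 demethylase, was 22.0 and 21.1 CPM in control and rapamycin libraries 1 and 74.6 and 150 CPM in libraries 2, and was higher in number 2 (log2 difference 2.29, adjusted p = 1.29e-06 from edgeR).

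None of the paralogs passed between rapamycin and control in either fit. With the block the log2 fold change was 0.48 for *KDM6A* (adjusted p = 0.325 from edgeR), 0.90 for *TGIF1* (adjusted p = 0.105) and 0.04 for *NADK* (adjusted p = 0.947). Their peaks were also weaker, but the members were chosen for strong gained peaks, so nothing is read from this. *TGIF1*, the closest relative of *TGIF2*, had a CDS peak at a fold enrichment of 61.6 and a 3′ UTR peak at 26.0, and *KDM6A* had a CDS peak at 24.1 and a 3′ UTR peak at 18.8, all in CAL33 rapamycin cells. *NADK* had a 3′ UTR peak at the same position in HSC3 rapamycin cells (10.9) and in CAL33 control cells (42.6). No paralog had a gained peak in both lines, against 9.64% of the genes with a peak in any list.

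Genes around *KDM6B* in histone H3 lysine 27 methylation moved in both directions. Of 18 genes tested, 1 was called higher and 2 lower with the block, against 4.65% and 3.50% of all genes tested. Without it, 0 were called. The median log2 fold change was −0.27 in both fits, against 0.06 without and 0.05 with the block over all genes tested. Of the 18, 4 were higher in both pairs and 11 lower in both pairs, against 34.6% higher and 31.8% lower over all genes tested. *KDM6B* was the higher gene. *EED* and *EZH2*, core subunits of PRC2 of which EZH2 is the methyltransferase, were lower. *EED* was 29.7 and 37.7 CPM in control libraries 1 and 2 and 15.5 and 16.3 CPM with rapamycin (log2 fold change −1.08 with the block, standard error 0.32, adjusted p = 0.0342 from edgeR). *EZH2* was 74.3 and 81.2 CPM in control and 48.7 and 35.7 CPM with rapamycin (log2 fold change −0.90, standard error 0.28, adjusted p = 0.0436 from edgeR). Both genes were lower with rapamycin in both pairs, as were 31.8% of all genes tested, and they were named because they were called. *JARID2*, an accessory subunit of PRC2, did not pass (log2 fold change 0.79, adjusted p = 0.0718 from edgeR).

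Peaks were listed on 9 of these 18 genes, and 4 had a gained peak in both lines, *KDM6B*, *KMT2C*, *KMT2D* and *NCOA6*. *KDM6B* is in the list because of its gained peaks, so nothing is read from that count. The last 3, named after their values were seen, encode members of the H3K4 methyltransferase complexes that also hold KDM6A. Their gained peaks reached a fold enrichment of at most 110, in *NCOA6* in CAL33. *KMT2C* and *KMT2D* also had lost peaks in both lines, up to 1070 for *KMT2C* in CAL33 control cells. *KDM6B* was the only one of the 4 without a control peak.

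In the TGF-beta and SMAD network around *TGIF2*, 1 of 20 genes tested was called higher and 0 lower with the block. Over all genes tested these shares were 4.65% and 3.50%. Of the 20, 0 were called without the block, and their median log2 fold change was 0.03 without and −0.01 with it. In both pairs 6 of them were higher and 6 lower, against 34.6% and 31.8% of all genes tested. *SMAD3*, which carries the TGF-beta signal to the nucleus and is a partner of TGIF repressors, was 159 and 175 CPM in control libraries 1 and 2 and 241 and 420 CPM with rapamycin (log2 fold change 0.93 with the block, standard error 0.26, adjusted p = 0.0287 from edgeR). Its rapamycin libraries lay above its control libraries, which was so for 15.0% of all genes tested. *TGFB2* (log2 fold change −0.74 with the block, adjusted p = 0.393) and *SMAD4* (−0.59, adjusted p = 0.318) did not pass. *TGIF2* and *TGFBR1*, a TGF-beta receptor kinase, were the 2 of 11 peak-bearing genes with a gained peak in both lines, and *TGIF2* was in the list because of its gained peaks. *SKI* and *SMAD3* had lost peaks in both lines, for *SMAD3* with fold enrichments of up to 264 in HSC3 and 102 in CAL33. Each also had a gained peak in 1 line, *SMAD3* at 114 in CAL33 and *SKI* at 20.1 in HSC3. *SKI* and *TGFBR1* were named after their values were seen. The *TGFBR1* peaks had a fold enrichment of 32.8 in HSC3 and 6.97 in CAL33 and did not overlap.

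Among 12 genes that TGF-beta is known to induce, edgeR called 3 higher and 0 lower with the block. Over all genes tested these shares were 4.65% and 3.50%. Without the block edgeR called 0 of the 12, and 1 had an unadjusted p under 0.05. DESeq2 without the block called 1, *JUNB* (adjusted p = 0.00175). The median log2 fold change was 0.48 without and 0.51 with the block, and 7 of the 12 were higher and 0 lower in both pairs, against 34.6% and 31.8% of all genes tested. *JUNB*, an AP-1 transcription factor, was 86.9 and 81.0 CPM in control libraries 1 and 2 and 238 and 327 CPM with rapamycin (log2 fold change 1.73 with the block, standard error 0.27, adjusted p = 0.000467 from edgeR). *KLF10*, a zinc finger transcription factor, was 87.6 and 51.5 CPM in control and 156 and 108 CPM with rapamycin (log2 fold change 0.95, adjusted p = 0.0215 from edgeR). *CCN2*, a secreted matrix protein, was 31.5 and 0.84 CPM in control and 74.1 and 3.18 CPM with rapamycin (log2 fold change 1.49, adjusted p = 0.00798 from edgeR), and so differed more between numbers than between treatments.

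For mitochondrial NADP and proline metabolism, 19 of 22 genes around *NADK2* were tested. With the block 1 was called higher and 0 lower, against 4.65% and 3.50% of all genes tested, and without it 0 were called. The median log2 fold change was 0.36 in both fits, with *NADK2* itself as the median gene, and 11 genes were higher and 1 lower in both pairs, against 34.6% and 31.8% of all genes tested. *ALDH1L2*, a mitochondrial folate enzyme that makes NADPH, was 7.99 and 0.93 CPM in control libraries 1 and 2 and 26.7 and 2.30 CPM with rapamycin (log2 fold change 1.56 with the block, standard error 0.44, adjusted p = 0.0275 from edgeR). *MTHFD2*, an enzyme of the same mitochondrial folate pathway, was 172 and 194 CPM in control and 338 and 291 CPM with rapamycin but did not pass (log2 fold change 0.78, adjusted p = 0.0581 from edgeR). *PYCR1*, which makes proline in mitochondria, was 79.9 and 29.5 CPM in control and 127 and 56.1 CPM with rapamycin and did not pass (log2 fold change 0.80, adjusted p = 0.0596 from edgeR). *IDH2*, the mitochondrial NADP-dependent isocitrate dehydrogenase, did not pass either (log2 fold change 0.58, adjusted p = 0.197). *NADK2* was 1 of 3 genes of the list with any peak and the only one with a gained peak in both lines. It is in the list because of its gained peaks, so nothing is read from that count.

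**Figure D5:**
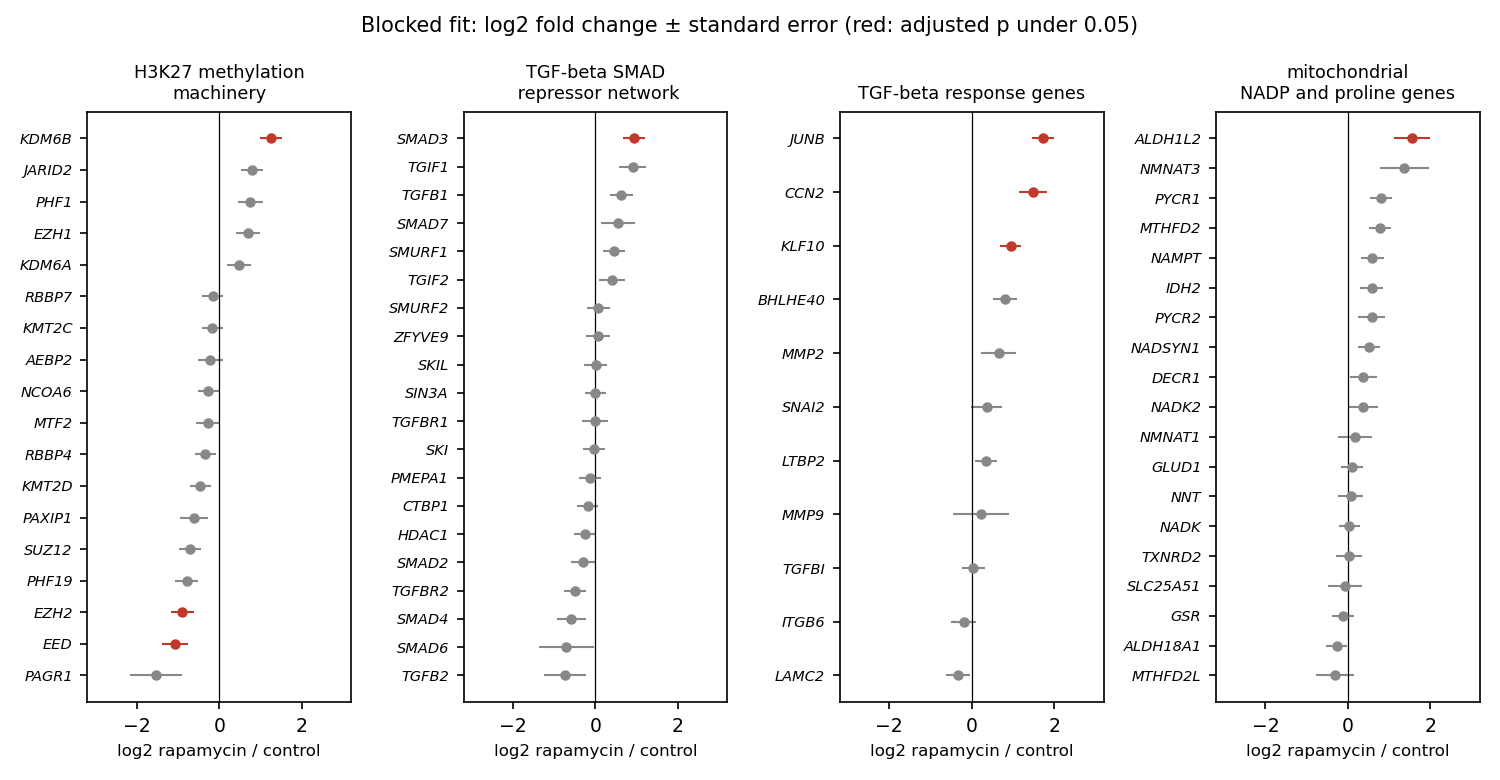
Log2 fold change of rapamycin over control with the number as a block, with its standard error, for the tested genes of the 4 lists, of which 1 TGF-beta response gene is not drawn. Red points passed an adjusted p of 0.05. *KDM6B* is at the top of the H3K27 list with *EZH2* and *EED* near its foot, whereas *TGIF2* and *NADK2* are grey points with an error that spans much of their change.

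The genes just outside the cut-off gave a similar mixture. *RHOB* mRNA was 94.0 and 19.1 CPM in control libraries 1 and 2 and 204 and 32.3 CPM with rapamycin, and passed with the block (log2 fold change 0.94, standard error 0.26, adjusted p = 0.0262 from edgeR). *C22orf46* (log2 fold change 0.27, adjusted p = 0.613) and *ZBTB41* (0.35, adjusted p = 0.582) did not. *C1GALT1*, near *NADK2* in its peak pattern, did not pass either (−0.32, adjusted p = 0.553).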

How the data were processed

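For 4 RNA-seq libraries the table deposited by the authors holds unnormalized counts per Ensembl gene, named as HTSeq output, and 1 peak list per pair of MeRIP-seq libraries with a fold enrichment ratio, a p-value (in the column named score), its log10 and a log10 false discovery rate. The deposited log10 p-values equal the log10 of that column (tolerance 0.05 or 1%) for all peaks with a p above 0. The submitters' processing notes name cutadapt 2.5, HISAT2 2.1.0, featureCounts 1.6.3, HOMER 4.10.4 and hg38 without roles. Which peak caller and scaling were used, and whether reads were counted by strand, is not given in the sources used here, and the depth of MeRIP-seq is unknown.

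edgeR 4.0.16 under R 4.3.3 was used for the counts (filterByExpr, TMM, quasi-likelihood test, Benjamini-Hochberg over all genes tested). CPM are TMM-scaled, and standard errors were derived from the fold change and the F statistic. DESeq2 1.42.0, other normalizations and filters, the block and each library left out were alternatives. Peaks were matched on strand over exonic blocks at 1 bp or more in Python 3.11.15. Gene positions come from RefSeq GRCh38.p14. Both procedures were tested on simulated data. The members and lists were chosen with earlier results of these data known. Named genes were the members, their paralogs, ranks 4 to 6, the 2 nearest peak patterns and up to 4 genes per list, those called with the block first and then the largest changes. No sequences under the peaks were used here. The list counts include 1 TGF-beta response gene whose own values are not reported here.

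The difference between numbers 1 and 2 in rapamycin libraries correlated with that in control libraries (r = 0.90 over 15826 genes), as a hint from the data. The numbers pair the libraries by cell line only in the MeRIP-seq labels. The RNA-seq labels do not give this pairing, so the fit without the block is the main one and the blocked value is printed beside it.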

Additional observations from a re-analysis of the deposited data

Results flagged for a closer look

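For 2 of the named genes the rapamycin and control libraries differed in opposite directions in the numbered pairs, with 1 library per treatment in each pair. These differences between the pairs were not tested. *KDM6A* mRNA differed by −0.06 on the log2 scale (rapamycin minus control) in number 1 and by 1.0 in number 2. *NADK* mRNA differed by 0.10 in number 1 and −0.02 in number 2. The members *KDM6B*, *TGIF2* and *NADK2* were higher with rapamycin in both pairs, as were 34.6% of all genes tested. A further 31.8% were lower in both pairs, so a single direction was common.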

How the results depend on the processing

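*KDM6B* mRNA was higher with rapamycin under all 13 alternatives. It passed with the replicate block (log2 fold change 1.25) and, in alternatives chosen after seeing the data, with the block and DESeq2 (1.27), upper-quartile normalization (1.33), no filter (1.22) or at least 10 counts in every library (1.28), with an adjusted p between 0.000672 and 0.00523 from edgeR or DESeq2. The other 8 did not pass, and with each library left out the value ran from 0.94 to 1.53. *NADK2* stayed between 0.12 and 0.54 and passed under none. *TGIF2* passed under none and ran from −0.03 (−0.03023, reversed, without control library 1) to 0.82 with libraries left out.

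Genes changed numbered 0 without the block and 0 with each library left out, 42 with DESeq2, 1290 with the block, and with the block 818 with DESeq2, 1165 with upper-quartile normalization (805 of them higher, against 736 of 1290), 1606 without a filter and 1236 with at least 10 counts. Genes differing between numbers were 3057 without the treatment term and 3927 with at least 10 counts, against 5899.

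The ranks of *KDM6B*, *NADK2* and *TGIF2* (1, 2 and 3) were the same under 6 alternatives or more each. The genes were chosen by these ranks, so this is a description and no support. Most of the alternatives changed which peaks or genes were kept and still ordered the genes by fold enrichment. By p-value *NADK2* was at rank 8 and *TGIF2* at rank 19. With no control peak allowed on the gene, 199 genes remained, *TGIF2* was at rank 2 and *NADK2* had no rank. With gained peaks required to overlap between lines, 249 genes remained of 594. The unknown MeRIP-seq depth and the single library pair per line and treatment limit all peak values.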
